A study of Mus musculus with 6 samples.

Results

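The genes of the proteasome were examined in the prelimbic cortex (PLc) of mice given ketamine or saline. They were taken by symbol, as every gene whose name starts with Psma, Psmb, Psmc, Psmd, Psme, Psmf or Psmg followed by a digit, without pseudogenes, and kept where the mean over all mice reached 10 normalized counts. Of 51 rows with such a symbol, 47 passed this minimum, among 16127 genes that passed it and 37620 that were listed. The 47 genes comprised 7 alpha and 7 constitutive beta subunits of the core, 3 inducible or tissue-restricted beta subunits, 6 ATPases and 3 other subunits of the base, 8 subunits of the lid, 7 assembly chaperones, 5 activators and inhibitors, and Psmc3ip. Psmc3ip is taken by the symbol rule but is no proteasome subunit, since it encodes a cofactor of meiotic recombination.

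RNA was sequenced from the PLc of 6 male C57Bl/6 mice, 9 weeks old, with a library for each mouse. Saline mice 1, 6 and 10 received the vehicle and ketamine mice 3, 5 and 9 received ketamine at 30 mg/kg, both once a day by intraperitoneal injection over 5 days, and tissue was taken 2 days after the last injection. Ketamine blocks the NMDA receptor, and this regime was used as a model of the raised dopamine synthesis seen in schizophrenia. The question addressed here is whether proteasome gene expression in the PLc differed between the groups, and how it varied between mice.

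The proteasome degrades proteins that carry a chain of ubiquitin. Its core is a barrel of alpha rings, which gate the entry, around beta rings, which hold the cutting sites, and it is capped by a regulatory particle whose base unfolds the substrate and whose lid removes ubiquitin. In neurons the proteasome turns over synaptic proteins, and in immune responses 3 of the cutting subunits are replaced by inducible counterparts, Psmb8, Psmb9 and Psmb10, which favour peptides for antigen presentation.

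No proteasome gene passed the test between ketamine and saline mice, and the group means lay close together. The ketamine mean was within 10% of the saline mean in 39 of 47 genes. The share of all genes within this bound is not given here, so this count does not set proteasome genes apart. What varied was the single mouse. In ketamine mouse 9 most subunits lay above every saline mouse, in ketamine mice 3 and 5 most lay below every saline mouse, and the spread of a subunit gene over the saline mice was small, with a median SD of 0.07 on the log2 scale against 0.33 over the ketamine mice. The median subunit gene differed from the saline mean by -9.42%, -14.3% and 24.65% in ketamine mice 3, 5 and 9.

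Values are normalized counts, meaning reads per gene after division by the library's size factor, and fold changes are differences of log2(normalized count + 1). The libraries held between 26273436 and 32643726 reads. RNA markers of other tissue differed between mice. All 13 striatal markers tested had a higher mean in ketamine mice, and their summed level ranged from 7208 to 9476 in saline mice and was 61795, 31053 and 9105 in ketamine mice 3, 5 and 9. For 9 olfactory bulb markers the sum ranged from 1000 to 2408 in saline mice and was 5021, 2845 and 18351 in ketamine mice 3, 5 and 9. Lhx1 of that list was at 0 in saline mice 1 and 6. All 7 markers of cortical excitatory neurons were detected in every mouse, and all 7 had a lower mean in ketamine mice, with sums of 182080 to 233470 against 104910 to 176630. Saline mice differed among themselves as well, since 7 oligodendrocyte markers summed to 57291, 45000 and 386630 in saline mice 1, 6 and 10. In ketamine mice 3, 5 and 9 these markers summed to 164150, 107190 and 118050. The part of all these markers in the proteasome values was not tested. In such bulk tissue, fewer cells of a type and less RNA per cell cannot be told apart.

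Each of the cutting sites is described first, since these subunits define the activity of the particle. Psmb5 carries the chymotrypsin-like site, Psmb6 the caspase-like site and Psmb7 the trypsin-like site. A known regulator of proteasome genes, NRF1 (gene Nfe2l1), acts through antioxidant response elements, whose core was searched as TGACNNNGC on both strands. The sequences upstream of the start of Psmb5, Psmb6 and Psmb8 are shown 5′ to 3′ on the strand of the gene, up to the base before the RefSeq start in GRCm38.p6, to set the promoters of constitutive and inducible subunits side by side. Capitals mark a match to TGACNNNGC, and Psmb8 has none in this window. The positions are chr14:54617996-54618115 on the minus strand for Psmb5, chr11:70525237-70525356 on the plus strand for Psmb6 and chr17:34198075-34198194 on the plus strand for Psmb8.
Psmb5: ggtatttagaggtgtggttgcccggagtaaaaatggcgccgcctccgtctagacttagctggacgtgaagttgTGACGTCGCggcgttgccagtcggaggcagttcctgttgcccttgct
Psmb6: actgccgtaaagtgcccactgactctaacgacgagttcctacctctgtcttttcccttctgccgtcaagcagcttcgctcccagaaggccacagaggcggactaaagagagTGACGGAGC
Psmb8: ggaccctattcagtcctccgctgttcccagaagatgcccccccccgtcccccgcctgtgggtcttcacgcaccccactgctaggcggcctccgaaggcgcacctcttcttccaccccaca

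Psmb5 measured 2223, 2254 and 2503 normalized counts in saline mice 1, 6 and 10 against 1817, 1795 and 3036 in ketamine mice 3, 5 and 9. Ketamine mice 3 and 5 were thus below every saline mouse and ketamine mouse 9 above every saline mouse, so that the groups overlapped. The means were 2327 ± 153 (SD, n = 3) and 2216 ± 710 (SD, n = 3), with a log2 fold change of -0.11 ± 0.22 (SE) and a limma adjusted p of 0.999. Psmb7 had the same order of mice. It measured 3384, 3627 and 3509 in saline mice 1, 6 and 10 against 2945, 2730 and 4489 in ketamine mice 3, 5 and 9, with a log2 fold change of -0.08 ± 0.20 (SE). Psmb6, the caspase-like subunit, departed from this order in 1 mouse, since ketamine mouse 3 lay among the saline mice. Its values were 1928, 1899 and 2204 in saline mice 1, 6 and 10 against 2015, 1758 and 2745 in ketamine mice 3, 5 and 9, with a log2 fold change of 0.09 ± 0.18 (SE). For Psmb5, Psmb6 and Psmb7 the SD over the ketamine mice was larger than that over the saline mice.

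Of the inducible cutting subunits, Psmb10, which replaces Psmb7, had the highest level per length. It measured 851, 903 and 938 in saline mice 1, 6 and 10 against 618, 651 and 996 in ketamine mice 3, 5 and 9. Ketamine mice 3 and 5 were below every saline mouse by a wider margin than for Psmb7, and mouse 9 was above them by a narrower one. The means were 897 ± 43.9 (SD, n = 3) and 755 ± 210 (SD, n = 3), and the log2 fold change of -0.28 ± 0.20 (SE), the lowest among the 47 genes, had a limma adjusted p of 0.999 (two-sided exact permutation p = 0.4). Psmb8, which replaces Psmb5, measured 69.9, 92.7 and 104 in saline mice 1, 6 and 10 against 80.3, 60.2 and 164 in ketamine mice 3, 5 and 9. Mouse 9 was again the highest and mouse 5 the lowest, but mouse 3 lay within the saline range. Psmb9, which replaces Psmb6 and is carried by a pair of gene identifiers whose exons share 3647 bases on chromosome 17, was listed at 0 in all 6 mice under both. Reads that fall in both gene models may not have been counted, so no level is read from this. Psmb11, a subunit of the thymus, was near the minimum at 1.92 to 15.4 in saline mice and 5.64 to 29.0 in ketamine mice.

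**Figure D1:**
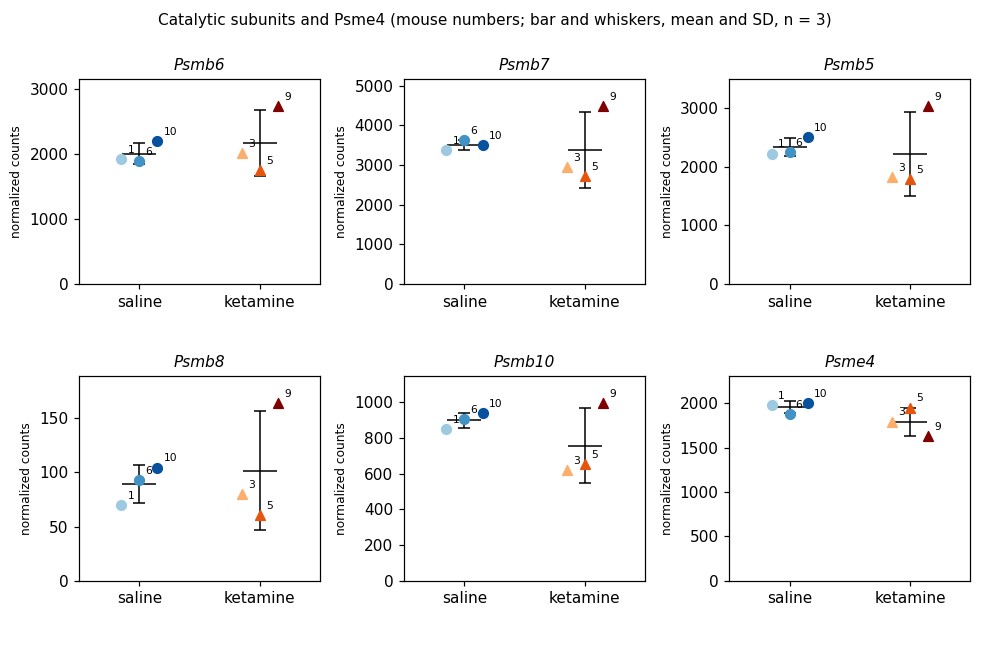
Normalized counts (linear axes from 0) of the cutting subunits Psmb6, Psmb7 and Psmb5, the inducible subunits Psmb8 and Psmb10, and the activator Psme4, in saline mice (circles) and ketamine mice (triangles), with mouse numbers and bars for the mean and SD of 3 mice. Ketamine mouse 9 is the highest of the 6 mice in all but Psme4, where it is the lowest at 1634.

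Ratios within a library do not depend on its size factor, and 10 were compared. The ratio of Psmb10 to Psmb7 was 0.251, 0.249 and 0.267 in saline mice 1, 6 and 10 against 0.210, 0.238 and 0.222 in ketamine mice 3, 5 and 9. The highest ketamine mouse was thus under the lowest saline mouse, with means of 0.223 ± 0.0144 against 0.256 ± 0.00993 (SD). The ratio of Psmb10 to Psmb5 was also without overlap and lower in ketamine mice, at 0.344 ± 0.0175 against 0.386 ± 0.0133 (SD). The ratio of Psmb6 to Psmb5 was without overlap and higher, at 0.998 ± 0.104 against 0.863 ± 0.0194 (SD). Each of these 3 had a two-sided exact permutation p of 0.1, the smallest that 3 mice against 3 allow, and 0.333 after Benjamini-Hochberg adjustment over the 10 ratios. They do not pass the test. The other 7 overlapped, among them Psmb8 to Psmb5, at 0.0439 ± 0.0103 in ketamine mice against 0.0381 ± 0.00574 in saline mice (SD).

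Within the core, all 7 alpha genes and 6 of 7 constitutive beta genes had ketamine mice 3 and 5 below every saline mouse and mouse 9 above. Psma6, an alpha subunit and the one with the highest level per length, measured 2120, 2117 and 2229 in saline mice 1, 6 and 10 against 2033, 1739 and 2977 in ketamine mice 3, 5 and 9. Psma3 and Psma4, also of the alpha rings, had the smallest p of that group, with log2 fold changes of -0.09 ± 0.18 (SE) each. Psmb1, a structural beta subunit, ranged over 3088 to 3266 in saline mice and measured 2944, 2545 and 4064 in ketamine mice 3, 5 and 9. The group means of Psmb1 were all but equal, at 3172 ± 89.3 and 3185 ± 788 (SD, n = 3 each), while the SD differed widely. Psmb3, another structural beta subunit, had a log2 fold change of 0.0017 ± 0.22 (SE), and Psma7 of 0.03 ± 0.16 (SE). The median log2 fold change was -0.02 over the alpha genes and -0.02 over the constitutive beta genes, beside -0.01 over all 16127 genes, and both turned above 0 with upper-quartile scaling, edgeR or DESeq2, reaching 0.03 at most. With a mouse left out they ranged from -0.22 to 0.10 and from -0.23 to 0.13, lowest without ketamine mouse 9 and highest without ketamine mouse 5.

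The 6 ATPases of the base, which unfold the substrate and open the gate, all had a log2 fold change below 0, with a median of -0.09. The median was -0.23 without ketamine mouse 9, -0.022 without mouse 3 and -0.024 without mouse 5, where Psmc1, Psmc4 and Psmc6 were above 0, as was Psmc4 without mouse 3. In all 6, ketamine mice 3 and 5 were below every saline mouse and mouse 9 was above. Psmc5 measured 4502, 4279 and 4415 in saline mice 1, 6 and 10 against 3598, 3665 and 4551 in ketamine mice 3, 5 and 9. Mouse 9 exceeded the highest saline mouse by little here, and the log2 fold change was -0.17 ± 0.14 (SE; limma adjusted p = 0.999, two-sided exact permutation p = 0.4). Psmc2 had -0.11 ± 0.14 (SE), with 2824 to 3059 in saline mice and 2459, 2623 and 3191 in ketamine mice 3, 5 and 9.

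In normalized counts, the large scaffold subunits of the base, Psmd1 and Psmd2, differed from its ATPases in the order of mice. Psmd2, which binds ubiquitin-like domains of shuttle proteins, measured 7635, 7000 and 6209 in saline mice 1, 6 and 10 against 6172, 6838 and 6977 in ketamine mice 3, 5 and 9. Psmd1, its paralogue, measured 5074, 4439 and 4262 in saline mice 1, 6 and 10 against 4505, 4333 and 4452 in ketamine mice 3, 5 and 9. In both genes saline mouse 1 was the highest and the ketamine mice lay within or near the saline range. Their exons sum to 5019 bases for Psmd1 and 4038 for Psmd2. With the length trend of each library removed, the 3 non-ATPase genes of the base were read as a set, Psmd4 included. Their medians were then -0.11, -0.13 and 0.08 in ketamine mice 3, 5 and 9, beside -0.16, -0.14 and 0.05 for the ATPases. Psmd1 shares 405 exon bases with Armc9 on its own strand and 252 with Htr2b on the opposite strand. Of the 47 genes, 12 share exon bases with another gene, and reads in those bases may not have been counted. Psmd4, a ubiquitin receptor of the base, kept the order of the core, with 2250, 2156 and 3015 in ketamine mice 3, 5 and 9 against 2402 to 2569 in saline mice.

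In the lid, 5 of 8 genes had ketamine mice 3 and 5 below every saline mouse and mouse 9 above, and the median log2 fold change was -0.03, which ranged from -0.17 without ketamine mouse 9 to 0.035 without ketamine mouse 3. Psmd14, the deubiquitinating enzyme of the lid, showed the contrast in spread between the groups: it measured 2121, 2132 and 2101 in saline mice 1, 6 and 10 against 1939, 1815 and 2487 in ketamine mice 3, 5 and 9. The means were 2118 ± 15.8 and 2080 ± 358 (SD, n = 3 each). The structural lid subunits Psmd6 and Psmd13 had the smallest p of the lid, with log2 fold changes of -0.10 ± 0.13 and -0.06 ± 0.18 (SE). Psmd7, the partner of Psmd14, had -0.02 ± 0.16 (SE). Psmd11, the lid gene with the lowest level per length, differed from these, since ketamine mouse 9, at 1902.6, was above saline mouse 1, at 1902.4, by under 1 normalized count.

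The assembly chaperones, which help to build the core (Psmg1 to Psmg4) or the base (Psmd5, Psmd9 and Psmd10), had log2 fold changes above 0 in 6 of 7 genes and a median of 0.06. Without ketamine mouse 9 the median was -0.07, with 6 of 7 below 0, and without saline mouse 1 4 of 7 were above 0. Psmg4 measured 102, 105 and 157 in saline mice 1, 6 and 10 against 129, 101 and 199 in ketamine mice 3, 5 and 9, and Psmg1 ranged over 229 to 304 in saline mice and 250 to 383 in ketamine mice. In both, mice 3 and 5 lay within or near the saline range and mouse 9 was the highest. Their log2 fold changes were 0.20 ± 0.30 and 0.16 ± 0.21 (SE). Psmd9 measured 751 to 766 in saline mice and 751, 694 and 945 in ketamine mice 3, 5 and 9. Psmd5 did not share the high value in mouse 9, with 1320, 1127 and 1134 in ketamine mice 3, 5 and 9 against 1102 to 1212 in saline mice.

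Among activators, Psme1 and Psme2 form the interferon-inducible cap, Psme3 and Psme4 are nuclear activators, and Psmf1 is an inhibitor of the core in vitro. In none of the 5 were ketamine mice 3 and 5 both below every saline mouse. Psme1 measured 689, 722 and 767 in saline mice 1, 6 and 10 against 817, 702 and 1100 in ketamine mice 3, 5 and 9, with a log2 fold change of 0.24 ± 0.18 (SE; limma adjusted p = 0.999, two-sided exact permutation p = 0.3), and 0.06 without ketamine mouse 9. Its partner Psme2 measured 534, 576 and 660 in saline mice 1, 6 and 10 against 535, 452.5 and 860 in ketamine mice 3, 5 and 9. The log2 fold change of Psme2 was 0.013 ± 0.25 (SE), and -0.26 without ketamine mouse 9. In normalized counts Psme4 had the reverse order in mouse 9, with 1977, 1876 and 2005 in saline mice 1, 6 and 10 against 1793, 1951 and 1634 in ketamine mice 3, 5 and 9. Its log2 fold change was -0.13 ± 0.12 (SE). Its exons sum to 8382 bases, and mouse 9 minus the mean of mice 3 and 5 was -0.19 in log2 units. All genes in the length bin with a median of 8721 bases had a median of -0.49 for this difference. Psme3 ranged over 2890 to 3307 in saline mice and 2930 to 3090 in ketamine mice, and Psmf1 over 943 to 1139 and 965 to 1018. For Psme3 and Psmf1 the ketamine mice lay inside the saline range.

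Psmc3ip, the non-subunit, measured 34.5, 29.9 and 63.7 in saline mice 1, 6 and 10 against 75.4, 38.6 and 96.99 in ketamine mice 3, 5 and 9. Ketamine mouse 5 lay within the saline range. Its log2 fold change of 0.69 ± 0.43 (SE) was the highest of the 47 genes, with a limma adjusted p of 0.999, and the gene shares 385 exon bases with Mlx on the opposite strand.

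**Figure D2:**
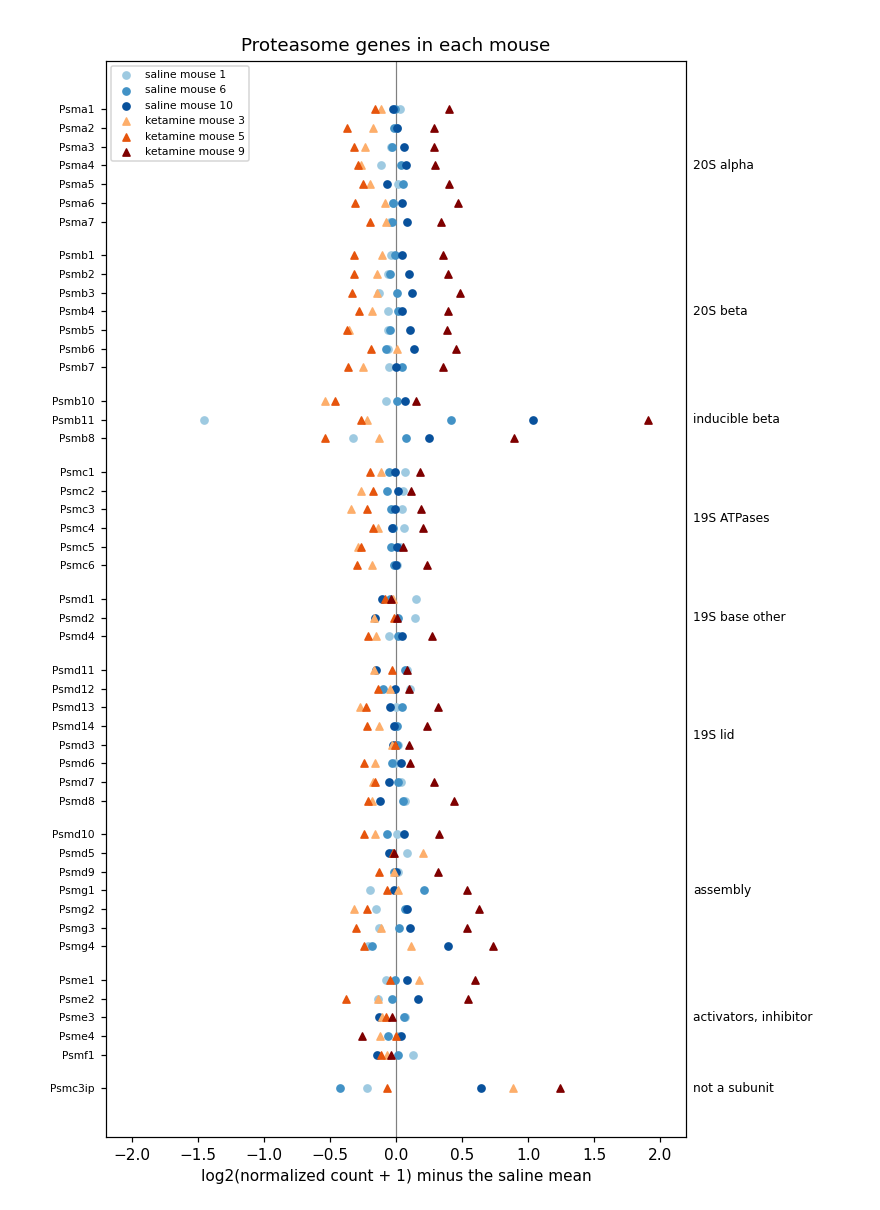
Difference of log2(normalized count + 1) from the mean of the 3 saline mice for each of the 47 genes, grouped by subcomplex, with 1 point per mouse (circles saline, triangles ketamine). For most core, ATPase and lid genes the saline mice lie near 0, ketamine mice 3 and 5 to the left and ketamine mouse 9 to the right. The medians over the 47 genes are -0.14, -0.22 and 0.32 for ketamine mice 3, 5 and 9.

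Across the 47 genes, 0 were called by limma at an adjusted p under 0.05, beside 0.0% of all genes tested, and 0 had an unadjusted p under 0.05, beside 5.81%. With edgeR on the recovered reads 0 were called, beside 0.0% of all genes, and with DESeq2 0 were called, beside 1.13%. Neither tool gave a proteasome gene an unadjusted p under 0.05. The groups were without overlap in 0 of 47 genes with ketamine higher, beside 5.69% of all genes, and in 0 with ketamine lower, beside 4.66%. Log2 fold changes ranged from -0.28 for Psmb10 to 0.69 for Psmc3ip, with 42 of 47 smaller than 0.2 in size, 18 above 0 and 29 below 0. Over all genes tested 7572 were above 0 and 8555 below, and the share smaller than 0.2 is not given here. The median over the 47 genes was -0.03, beside -0.01 over all genes, and 0.01 with edgeR. The median standard error was 0.18, so a change of the size of most of these medians was not detectable with 3 mice a group.

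The order of mice was counted over the same genes as a description. Ketamine mouse 9 was the highest of the 6 mice in 40 of 47 genes, beside 29.4% of all genes, and lay above every saline mouse in 40, beside 34.5%. Ketamine mouse 5 was the lowest in 28, beside 15.1% of all genes, and ketamine mouse 3 in 10, beside 16.0%. Ketamine mice 3 and 5 were both below every saline mouse in 29 genes, beside 15.3% of all genes, and in all 29 mouse 9 was above every saline mouse, beside 7.53%. The SD over the ketamine mice exceeded that over the saline mice in 41 of 47 genes (87.2%), beside 65.1% of all genes. The median SD of log2 values was 0.07 over saline mice and 0.33 over ketamine mice for proteasome genes, and 0.19 and 0.28 for all genes. Proteasome genes thus lay closer together than the typical gene in saline mice, but not in ketamine mice. This comparison was not matched for expression level. A mean of at least 100 was reached by 44 of 47 proteasome genes, beside 12413 of all 16127 genes. Whether other genes of like level lay as close together in saline mice was not tested.

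**Figure D3:**
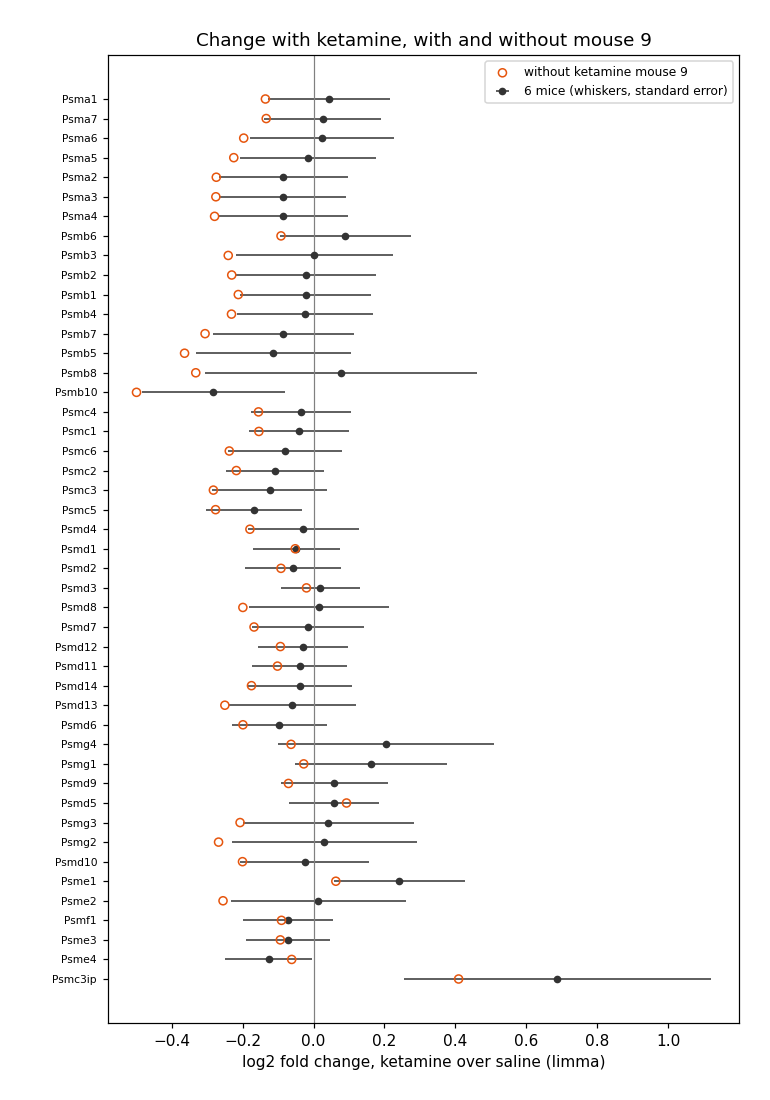
Log2 fold change of ketamine over saline for 46 of the 47 genes, from limma in the 6 mice (filled points, whiskers for the standard error) and without ketamine mouse 9 (open points). Psmb11 is not drawn, as it falls below the minimum without that mouse. Most open points lie left of 0, with a median of -0.20 against -0.03 with all mice.

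Because mouse 9 stood apart in these same values, the comparison was repeated without it. Lower levels in ketamine mice 3 and 5 follow in part from that choice. The genes also vary together over the mice, so the counts are a description. Of 46 genes that kept the minimum, 43 had a lower mean in ketamine mice 3 and 5 than in saline mice. By limma, 10 had an unadjusted p under 0.05 and were lower, beside 4.24% of all genes, and 0 were higher at that level, beside 5.84%. After adjustment 0 proteasome genes were called, beside 0.0062% of all genes, which is 1 gene. The 10 were Psma2, Psma3, Psma4, Psmb5, Psmb7, Psmb10, Psmc3, Psmc5, Psmc6 and Psmd13, with log2 fold changes from -0.50 for Psmb10 to -0.24 for Psmc6. Psmd5, Psme1 and Psmc3ip were the 3 genes with a higher mean in mice 3 and 5, at 0.09, 0.06 and 0.41. Without ketamine mouse 5 instead, the median over the 47 genes was 0.06.

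Most proteasome genes had a like profile over the mice. For each gene, Pearson's r over the 6 mice with the mean of the other 46 was over 0.8 in 34 of 47 (72.3%), beside 13.3% of all genes with the mean of the proteasome genes, with Psmb4 highest at 0.995, followed by Psmd4 at 0.992. By length, the share over 0.8 was 17 of 20 up to 2 kb, beside 31.3% of all genes of that length, 15 of 18 from 2 to 4 kb, beside 13.6%, and 2 of 9 over 4 kb, beside 3.72%. Over all 1081 pairs the median r was 0.801. These points share 6 libraries and their size factors, genes are not independent replicates, and mouse 9 was the highest of the 6 mice in 40 of the 47 genes. In 7 genes r was below 0.5, namely Psme4 (-0.67), Psmd5 (-0.35), Psmd1 (-0.10), Psmf1 (0.05), Psmd2 (0.09), Psme3 (0.10) and Psmd11 (0.37). All 7 have exons that sum to more than the median of 2209 bases.

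Gene length moved with the difference between the ketamine mice. In log2 units, mouse 9 exceeded the mean of mice 3 and 5 by a median of 0.54 over the 47 genes, beside -0.00078 over all genes, and the difference was above 0 in 45 of 47, beside 49.9% of all genes. The exceptions were Psme4, at -0.19, and Psmd5, at -0.10. Spearman's rho between this difference and the summed exon length was -0.63 across the 47 genes and -0.49 across 16093 genes with a length, where genes are not independent replicates. For genes of up to 2 kb the median of this difference was 0.63 over 20 proteasome genes and 0.41 over all 3586 genes. For 2 to 4 kb it was 0.48 over 18 and 0.13 over 5659, and over 4 kb it was 0.12 over 9 and -0.28 over 6848. With the length trend of each library removed, the median difference was 0.27 and it stayed above 0 in 43 of 47 genes, beside 50.9% of all genes. The medians in ketamine mice 3, 5 and 9 were then -0.09, -0.13 and 0.17. This correction was chosen after the data were seen.

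**Figure D4:**
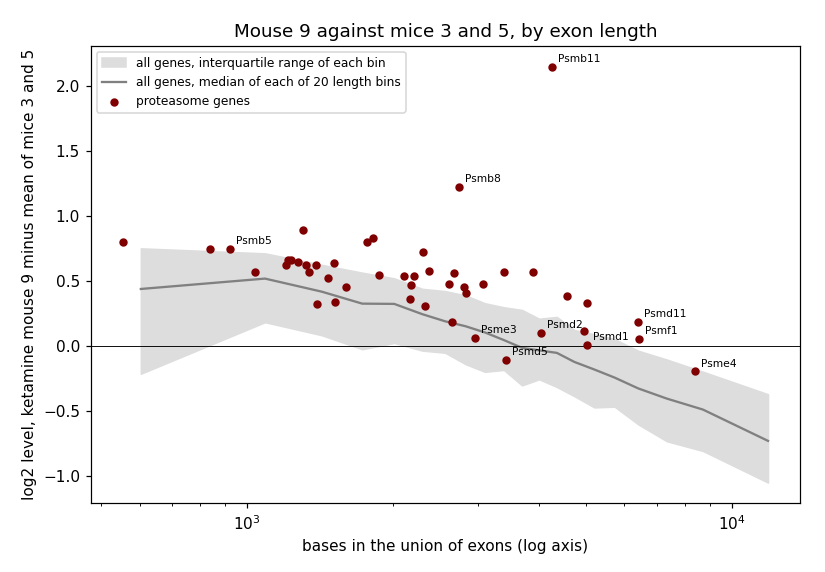
Log2 level in ketamine mouse 9 minus the mean of ketamine mice 3 and 5, against the bases in the union of exons (log axis), for the 47 proteasome genes (points), with the median (line) and the interquartile range (band) of all genes in 20 bins of length. Most points lie above the line. Of the genes over 4 kb, Psme4, Psmf1, Psmd1 and Psmd2 lie at or below 0.10. The others of that length, Psmd3, Psmd11, Psmc2, Psmd9 and Psmb11, lie at 0.12, 0.19, 0.33, 0.39 and 2.15.

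Other short and abundant gene families also had a high median in mouse 9. Over 64 cytosolic ribosomal protein genes the medians relative to saline were -0.08, -0.24 and 0.53 in ketamine mice 3, 5 and 9, and over 71 nuclear genes of oxidative phosphorylation they were -0.13, -0.27 and 0.40. The proteasome genes had -0.14, -0.22 and 0.32 and thus the same order of mice.

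Levels of different genes were compared per kilobase of exon in saline mice. The highest were the ATPase Psmc5, at 3155 ± 80.6 normalized counts per kb (SD, n = 3), the beta subunit Psmb1, at 3061 ± 86.2, and the cutting subunit Psmb7, at 2888 ± 99.9. Psmc5 and Psmb1 differed by little more than their spread. Of the other cutting subunits, Psmb5 was at 2524 ± 166 and Psmb6 at 1074 ± 89.8. Yet Psmb5, Psmb6 and Psmb7 are present in equal number in the particle. Alpha genes ranged from 727 for Psma7 to 1747 for Psma6. Assembly chaperones lay lower, from 166 for Psmd9 to 334 for Psmd5. Of the inducible subunits, Psmb10 reached 707 ± 34.6, Psmb8 32.5 ± 6.39 and Psmb11 2.11 ± 1.59. The exon union includes retained introns and rare exons, so a gene with such models has a lower level per kb.

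**Figure D5:**
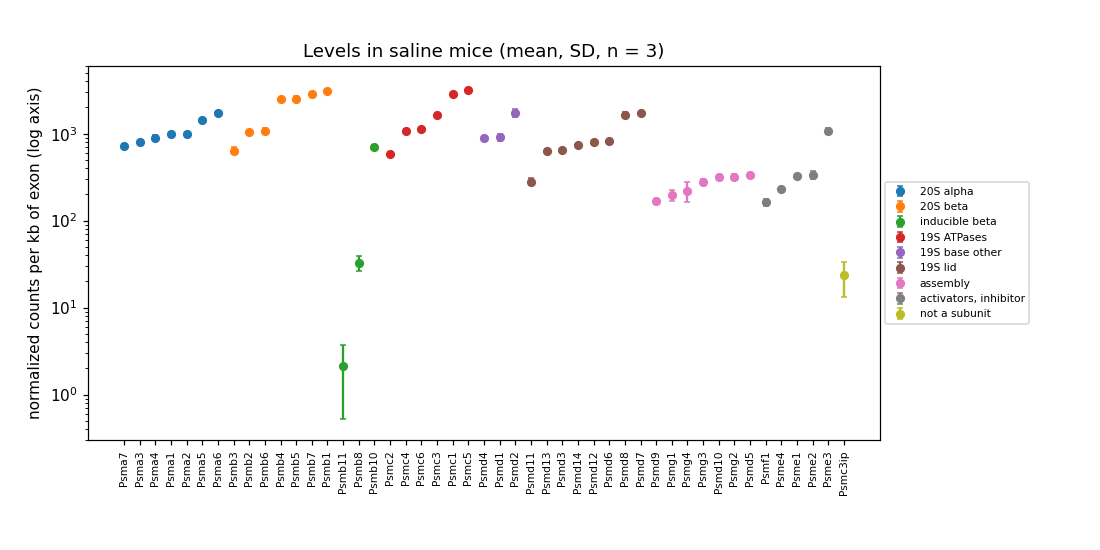
Normalized counts per kb of exon (log axis) in the 3 saline mice, as mean and SD, for the 47 genes grouped by subcomplex and ordered by level within it. Core and ATPase genes lie mostly between 587 and 3155, the assembly chaperones between 166 and 334, and Psmb8 and Psmb11 far below.

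Genes that act with the proteasome but lie outside the symbol rule were read from the same fit, and 0 of them were called by limma or DESeq2. Among 20 partners, such as shuttle proteins and deubiquitinating enzymes, 6 had a log2 fold change above 0 and 14 below, with a median of -0.07, or -0.019 with 10 above and 10 below without ketamine mouse 5. Uchl5, a deubiquitinating enzyme of the base, measured 1258, 1215 and 1210 in saline mice 1, 6 and 10 against 913, 950 and 1227 in ketamine mice 3, 5 and 9, and its log2 fold change was -0.27 ± 0.15 (SE). Mouse 9 lay within the saline range. Usp14, another such enzyme, and the shuttle protein Rad23b had -0.28 ± 0.18 and -0.23 ± 0.15 (SE). For both, saline mice 1 and 6 lay above every ketamine mouse, but saline mouse 10 did not, at 3458 and 5476. Ketamine mice 3, 5 and 9 had 3658, 3834 and 3680 for Usp14 and 5419, 5841 and 5688 for Rad23b. The shuttle protein Ubqln1 was the 1 gene of the 20 without overlap, beside 4.66% of all genes with ketamine lower, at 5738 to 6012 in saline mice and 5015 to 5620 in ketamine mice, with -0.15 ± 0.12 (SE).

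In the pathway of NRF1, the transcription factor that raises proteasome genes when the particle is inhibited, 7 of 11 genes were above 0 and 4 below, with a median of 0.0056, which was -0.045 without saline mouse 10 and -0.0053 without ketamine mouse 9. Its gene Nfe2l1 measured 12028, 10316 and 9075 in saline mice 1, 6 and 10 against 10611, 10335 and 7778 in ketamine mice 3, 5 and 9. Nfe2l1 was lowest in mouse 9. Ddi2, the protease that activates NRF1, measured 1580 to 1798 in saline mice and 1574, 1859 and 960 in ketamine mice 3, 5 and 9, and was also lowest in mouse 9. Nfe2l2, which encodes a related factor, had 0.29 ± 0.23 (SE) and Nfyb, a subunit of the CCAAT-binding factor, -0.18 ± 0.17 (SE). Of the same list Mafk was also lowest in mouse 9, at 218. Nfe2l2, Ngly1, Akirin2 and Nfyc were highest in mouse 9, at 664, 872, 2442 and 1091. The list had a median of 0.13 in mouse 9 relative to saline. Its median exon length was 5068 bases, and all genes over 4 kb had a median of -0.22 in mouse 9. The part of NRF1 in the proteasome values was not tested.

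The polyubiquitin gene Ubb measured 26164 to 27333 in saline mice and 26486, 24329 and 36858 in ketamine mice 3, 5 and 9, so mouse 9 was again the highest. Over 13 genes of antigen presentation by MHC class I, which uses the peptides that proteasomes make, the median was 0.09, with 8 above 0 and 5 below, and -0.015 without ketamine mouse 9. Tap1, a peptide transporter subunit, was the 1 gene of the 13 without overlap, beside 5.69% of all genes with ketamine higher, at 71.8, 77.2 and 79.1 in saline mice 1, 6 and 10 against 91.0, 83.7 and 149 in ketamine mice 3, 5 and 9, with 0.45 ± 0.26 (SE). Tap2, its partner, had 0.47 ± 0.26 (SE), and Tapbp, which loads the peptide, 0.27 ± 0.18 (SE). Without ketamine mouse 9 the values of Tap1, Tap2 and Tapbp were 0.20, 0.26 and 0.08. Each of these had a limma adjusted p of 0.999. A list of 10 microglia markers, read because microglia express inducible subunits, summed to 13969 to 16945 in saline mice and to 14052, 14101 and 17143 in ketamine mice 3, 5 and 9, and 3 of the 10 had a mean above that in saline mice. Their part in the values of Psmb8 and Psmb10 was not tested.

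Promoters, from 250 bases before to 50 after the RefSeq start in GRCm38.p6, were found for 40 of the 47 genes, in 43 windows. TGACNNNGC was present in 13.95% of these windows, in 6 genes, and in 12.4% of all 32851 windows. CCAAT, the site of NF-Y, was in 32.6% against 37.4%, and GGGCGG, a site of SP1, in 53.5% against 35.7%. All were searched on both strands, and no other motif was. In Psmb5 the match TGACGTCGC ended 38 bases before the start, and in Psmb6 TGACGGAGC ended at the base before it. The difference of mouse 9 from mice 3 and 5 had a median of 0.43 over the 6 genes with TGACNNNGC and of 0.55 over the other 34.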

How the data were processed

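RNA was isolated from the PLc of 3 saline and 3 ketamine mice and sequenced as paired ends. The authors used TopHat2 2.0.11 for alignment to mm9, HTSeq for gene counts and DESeq2 for normalization. What they deposited is a signal per gene, the read count over the size factor of its library. The gene annotation and strand setting are not given in the sources used here. In each library all values were whole reads within 0.1 read after division by a single step, and the recovered reads differ from normalized counts by a factor of 0.906 to 1.10. Every mouse is a separate library, and p-values measure the spread between mice.

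Log2(normalized count + 1) was compared with limma 3.58.1 (R 4.3.3, trended prior variance, two-sided, Benjamini-Hochberg over 16127 genes with a mean of at least 10, threshold 0.05). Single ratios were compared with an exact permutation test. edgeR 4.0.16 and DESeq2 1.42.0 were run on recovered reads. Other alternatives were pseudocounts of 0.1 and 5, no filter or a filter of 100, other scalings, no trend, each mouse left out, and corrections for gene length and GC content. The model fits were tested on simulated data. Coordinates and exon lengths came from GENCODE M1 on mm9, which held 37205 of 37620 identifiers. The members, gene lists and ratios were chosen with earlier results of these data known. Named with values were the cutting subunits and their inducible counterparts, in each subcomplex the pair with the smallest limma p and the extremes of level per kb, Psme3, Psme4, Psmf1, Psmc3ip, and in each context list the 3 genes with the smallest p. Psmd3, Psmd14, Psme2, Nfe2l1, Mafk, Ngly1, Akirin2, Nfyc, Ubb and Ubqln1 were added after their values were seen. So were the genes singled out by their correlation or without mouse 9, and the marker lists' values. The summary of the list of ubiquitin genes is not reported here.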

Additional observations from a re-analysis of the deposited data

How the results depend on the processing

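No proteasome gene was called under any of the 17 alternatives. Over all genes, 0 were called in the 6 mice by limma and by edgeR, 182 by DESeq2 on recovered reads, and 0 to 1 with a mouse left out, with 1 called without ketamine mouse 5 and 1 without ketamine mouse 9. The median log2 fold change of proteasome genes, -0.03, ranged from -0.20 without ketamine mouse 9 to 0.06 without ketamine mouse 5, and was 0.0039 with upper-quartile scaling, 0.01 with edgeR and 0.0030 with DESeq2. The cause of these shifts was not tested.

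Small log2 fold changes turned sign. Psmb1 was 0.0073 with upper-quartile scaling, 0.024 with edgeR and 0.012 with DESeq2. Psmd7 was 0.014 with upper-quartile scaling, 0.019 with edgeR and 0.0071 with DESeq2. Psmd4 was 0.00081 with upper-quartile scaling and 0.0050 with edgeR. With the length correction Psmb3 was -0.0031 and Psmd11 0.0021. With each mouse left out, the range crossed 0 in 37 of the 47 genes, including all 7 alpha, all 7 constitutive beta and all 7 chaperone genes. Among the genes named by rule these ranges were, for alpha genes, -0.28 to 0.029 for Psma3, -0.28 to 0.014 for Psma4, -0.20 to 0.19 for Psma6 and -0.13 to 0.14 for Psma7. For beta genes they were -0.21 to 0.13 for Psmb1, -0.24 to 0.17 for Psmb3, -0.36 to 0.015 for Psmb5, -0.092 to 0.23 for Psmb6, -0.31 to 0.053 for Psmb7, -0.33 to 0.38 for Psmb8 and -0.25 to 0.99 for Psmb11. For genes of the base and lid they were -0.10 to 0.026 for Psmd1, -0.14 to 0.013 for Psmd2, -0.18 to 0.062 for Psmd4, -0.17 to 0.064 for Psmd7, -0.12 to 0.026 for Psmd11 and -0.25 to 0.048 for Psmd13. For chaperones they were -0.016 to 0.10 for Psmd5, -0.071 to 0.15 for Psmd9, -0.028 to 0.28 for Psmg1 and -0.063 to 0.43 for Psmg4.

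No paired analysis was possible because the mouse numbers differ between the groups. With 3 mice a group and a median standard error of 0.18 on the log2 scale, differences of the size seen in most proteasome genes could not be detected, and a p that misses the threshold does not show equal levels. Psmb11, Psmb8 and Psmc3ip rest on the fewest reads.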
